A study of Mus musculus with 8 samples.

Results

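Proteasome genes were followed in CD4+ T cells taken directly from BALB/c mice, under antibody stimulation and the kinase inhibitor dorsomorphin. Members were all genes whose single symbol in the array's platform annotation begins with Psma, Psmb, Psmc, Psmd, Psme, Psmf or Psmg followed by a digit. The rule found 49 of the 18193 genes that carry a single symbol, measured by 103 probe sets, and the probe set whose mean over the 8 arrays was highest stood for the gene. A gene was tested where its log2 signal exceeded 5.22, the 40th percentile of all values, on at least 2 arrays. That left 47 members among 13983 tested genes. Psma8, which encodes a testis form of an alpha subunit, lay above this floor on 1 of 8 arrays, and Psmb11, the beta subunit of the thymic cortical epithelium, on 0 of 8, and neither was tested.

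Stimulation used plate-bound antibody against CD3 with soluble antibody against CD28, which engage the T cell receptor and its costimulatory partner. It began 1 h before 4 µM dorsomorphin or the solvent DMSO was added for 6 h. Whether the antibodies stayed on during those 6 h of dorsomorphin or DMSO was not established. Dorsomorphin blocks AMPK, an energy-sensing kinase, and the type I receptors of bone morphogenetic proteins. The groups were stimulated cells with dorsomorphin, stimulated cells with DMSO, unstimulated cells with dorsomorphin, and control cells with neither antibody nor dorsomorphin but with DMSO. Each group had 2 arrays, and all cells came from the same strain and cell type. Whether the replicates are separate mice or separate cultures is not stated in the labels, so each p-value reflects the spread between arrays alone, and that spread may be technical.

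The proteasome degrades proteins tagged with ubiquitin. Its barrel-shaped core particle, the 20S, is built from stacked rings of alpha and beta subunits, and 3 of the beta subunits cut peptide bonds. The 19S regulatory particle sits on an end of the barrel, binds ubiquitin, unfolds the substrate with a ring of ATPases and feeds it in. In lymphocytes the cutting subunits Psmb5, Psmb6 and Psmb7 can be exchanged for Psmb8, Psmb9 and Psmb10, which are induced by interferon-gamma and favour peptides for MHC class I, and this form is called the immunoproteasome. By role the 49 members comprised 8 alpha subunits, 7 constitutive beta subunits, 4 inducible or tissue-specific beta subunits, 6 ATPases and 11 other subunits of the 19S, 7 assembly chaperones, 4 activators or inhibitors of the core, and 2 genes that only share the letters of the symbol. The last are Psmc3ip, a factor of meiotic recombination named for its binding to Psmc3, and Psme3ip1, named for its binding to Psme3.

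Signals are given on the log2 scale, and a log2 difference of 1 is a 2-fold difference. Median signals over all probe sets ranged from 45.4 to 74.5 per array, and precision is limited by having 2 arrays a group. The 11 markers of CD4 T cells that were measured all lay above the floor. Their summed signal was 48711 to 49225 on the arrays of stimulated cells with dorsomorphin, 79943 to 84214 in stimulated cells, 33621 to 46379 with dorsomorphin alone and 98448 to 99232 in controls. Against stimulated cells, 4 of these 11 were called lower and 1 higher with dorsomorphin, with a median difference of -0.90. Over all tested genes 12.4% were called lower and 9.71% higher in that comparison. In unstimulated cells 6 of the 11 were called lower with dorsomorphin than in control cells, with a median of -2.06, beside 11.1% of all tested genes. In stimulated against control cells 1 was called higher and 1 lower, beside 8.98% and 14.4% of all tested genes. The summed signal of 12 myeloid and dendritic markers was 3945 to 4068 on the arrays of stimulated cells with dorsomorphin, 3977 to 7593 in stimulated cells, 3412 to 3624 with dorsomorphin alone and 11422 to 13820 in controls. Of those 12 markers 3 were called lower in stimulated than in control cells (median -1.39). With dorsomorphin alone 3 were also called lower than in control cells (median -1.38). Over all tested genes 14.4% and 11.1% were called lower in these contrasts. Ctss was the brightest of the 12 on every array and weighs most in the sum. Its log2 signals were 12.82 and 13.01 in controls and 10.74 and 10.88 with dorsomorphin alone. The summed signals of 6 CD8 T and NK cell markers and of 7 B cell markers were likewise highest in controls, at 1595 to 2026 and 534 to 627. Of these 6 markers Klrd1 was the brightest in controls, at log2 signals of 10.22 and 9.93, against 6.11 and 5.21 in stimulated cells. Cd8a and Nkg7 were instead higher on both stimulated arrays than on both control arrays. The median difference of the 6 was 0.08 in stimulated against control cells and -1.40 with dorsomorphin alone against control cells. The summed signals of 2 erythroid markers overlapped between groups. The log2 signal of Cd4 itself was 9.23 and 8.34 in stimulated cells with dorsomorphin, 9.39 and 8.42 in stimulated cells, 9.44 and 7.97 with dorsomorphin, and 11.02 and 10.78 in control cells. The part of these shifts in the comparisons below, with dorsomorphin and with control cells, was not tested. In RNA from whole cultures, fewer cells of a type and less RNA per cell cannot be told apart.

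The first comparison asked how the proteasome genes of stimulated cells with DMSO differed from those of control cells. In stimulated cells 26 of the 47 tested members rose against control cells and 0 fell, by limma with Benjamini-Hochberg adjustment over all 13983 genes at 0.05. Over all tested genes 8.98% were called higher and 14.4% lower in this contrast, so 55.3% of the proteasome genes stood beside a background of 8.98%. The members were brighter than most tested genes, with medians per array of 11.59 to 13.03, against 7.63 to 8.63 over all tested genes. With the floor at the 60th percentile 34 members were called, beside 17.4% of 9640 genes called higher. The median log2 difference of the members was 1.20, against -0.27 over all tested genes. The called members rose by 2.05-fold (Psmc6) to 7.06-fold (Psme3). A further 10 members had an unadjusted p under 0.05 without passing the adjusted threshold. With those called, 36 of the 47 had such a p by limma, beside 5364 of the 13983 tested genes. For 42 of the 47 both stimulated arrays lay above both control arrays, against a background of 25.1%. For 31 of the 47 (66.0%) both stimulated arrays lay above all of the other 6 arrays, against 16.5% of all tested genes.

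**Figure D1:**
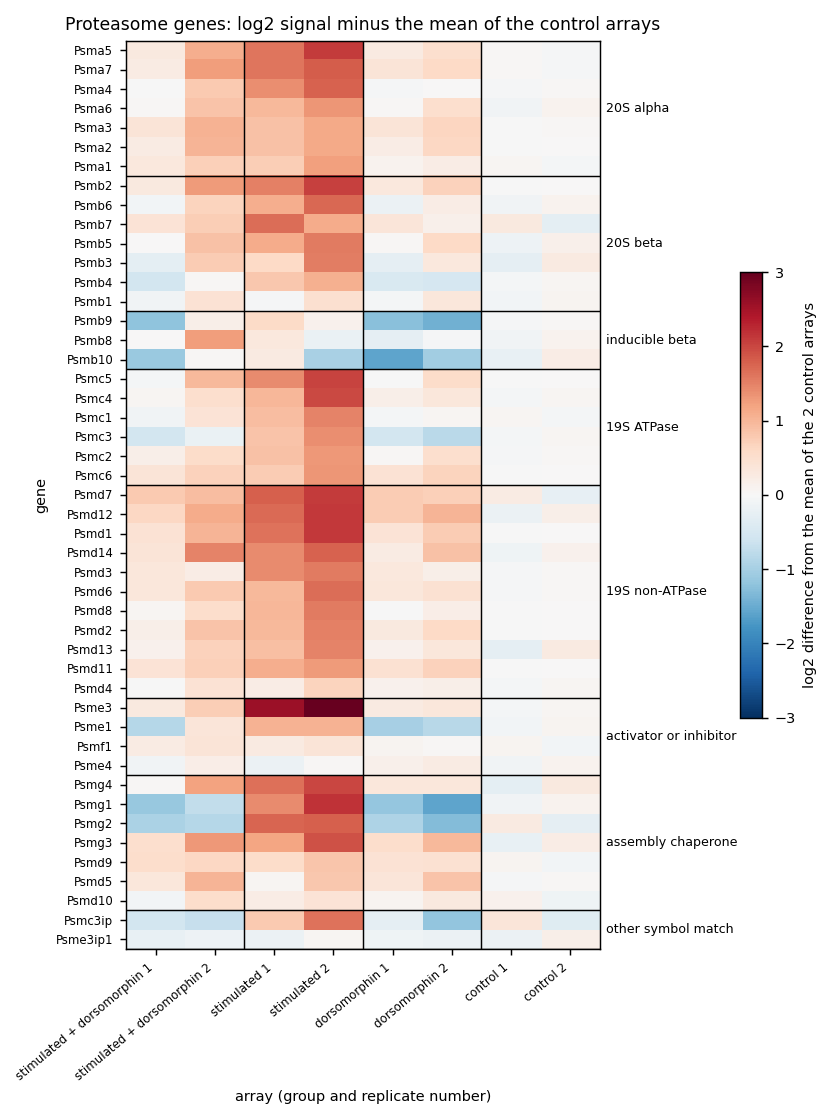
Log2 signal of the 47 tested proteasome genes on each of the 8 arrays, minus the gene's mean over the 2 control arrays. Rows are grouped by role and ordered within a role by the difference between stimulated and control cells, and red is higher than control. Most rows of the core, the 19S and the chaperones are red in the stimulated columns, the inducible beta subunits have differences near 0 there on average, of -0.35 to 0.35, and Psme3 is the deepest row, at 2.82 above control on average.

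The rise was spread over both particles. Of the 14 tested core subunits, alpha and constitutive beta together, 6 were called higher, with a median difference of 1.25 and a range of 0.23 to 1.85. Of the 17 subunits of the 19S, 15 were called higher, with a median of 1.27 and a range of 0.44 to 1.95. The medians of core and regulatory particle thus differed by far less than the range within either. All 6 ATPases and 9 of the 11 other 19S subunits were called, against 3 of 7 alpha and 3 of 7 constitutive beta subunits.

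Among the alpha subunits Psma5 had the largest difference and Psma1 the smallest. Psma5, part of the outer ring that gates the barrel, had log2 signals of 13.57 and 14.06 in stimulated cells, against 12.0001 and 11.93 in control cells. Its difference was 1.85 ± 0.34 (limma SE, n = 2 arrays per group, adjusted p = 0.018 by limma). Psma1, of the same ring, read 13.36 and 13.85 in stimulated and 12.68 and 12.58 in control cells, a difference of 0.98 ± 0.27 that just missed the threshold. Neither gene's groups overlapped. Psma4 rose by 1.59 ± 0.32 (limma adjusted p = 0.0224).

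Among the constitutive beta subunits Psmb2, a non-cutting subunit of the inner ring, had the largest difference. It read 12.51 and 13.07 in stimulated cells, against 11.00 and 11.02 in control cells, and rose by 1.78 ± 0.40 (limma adjusted p = 0.028). Psmb1, also non-cutting, had the smallest, at 12.84 and 13.37 in stimulated and 12.79 and 12.97 in control cells. Its groups overlapped, and the difference of 0.23 had a 95% interval of -0.56 to 1.01. The 3 constitutive cutting subunits are described with their inducible partners below.

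In the ring of ATPases that unfolds substrates, differences ran from 1.03 to 1.72. Psmc5 was at the upper end, with 12.28 and 12.90 in stimulated cells and 10.85 and 10.89 in control cells (1.72 ± 0.43, limma adjusted p = 0.0381). Psmc6 was at the lower end, with 12.75 and 13.31 in stimulated cells and 11.98 and 12.01 in control cells (1.03 ± 0.28, limma adjusted p = 0.0446). For all 6 ATPases the stimulated arrays lay above the control arrays.

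Psmd7, a lid subunit that pairs with the deubiquitinase Psmd14, had the largest difference among the other 19S subunits. Its log2 signals were 12.29 and 12.58 in stimulated cells, against 10.73 and 10.25 in control cells (1.95 ± 0.26, limma adjusted p = 0.0105). Next were the scaffold lid subunit Psmd12 (1.91 ± 0.29) and Psmd1, a large scaffold of the base (1.87 ± 0.31), followed by Psmd14 (1.60 ± 0.44) and the lid subunit Psmd3 (1.49 ± 0.20). Psmd11, another lid subunit, rose by 1.18 ± 0.23. Psmd4, a ubiquitin receptor, had the smallest difference and was not called: it read 11.96 and 12.41 in stimulated and 11.68 and 11.82 in control cells, a difference of 0.44 with a 95% interval of -0.22 to 1.11.

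Of the 4 activators or inhibitors of the core 1 rose. Psme3 encodes PA28-gamma, a mainly nuclear ring that opens the barrel without ubiquitin or ATP. Its log2 signals were 11.27 and 11.78 in stimulated cells, against 8.65 and 8.76 in control cells, the largest difference of any member (2.82 ± 0.28, limma adjusted p = 0.00851). Psme1 encodes a subunit of the interferon-induced PA28-alpha-beta ring. It read 14.15 on both stimulated arrays, against 13.02 and 13.18 in control cells, a difference of 1.05 ± 0.41 that was not called (limma adjusted p = 0.118). Its partner Psme2 was measured only by a probe set annotated to both Psme2 and Psme2b, which is therefore no member, and this probe set read 13.95 and 13.99 in stimulated and 12.92 and 13.09 in control cells.

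Psme4 encodes PA200, a single-chain activator, and it read 11.42 and 11.63 in stimulated and 11.51 and 11.70 in control cells. Psmf1 encodes PI31, first described as an inhibitor of the core, and it read 9.95 and 10.07 in stimulated and 9.77 and 9.60 in control cells. Neither was called, with log2 differences of -0.08 ± 0.23 and 0.33 ± 0.21. Psmc3ip and Psme3ip1, the matches by symbol alone, differed by 1.20 ± 0.46 and -0.06 ± 0.23, and neither was called.

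Of the 7 assembly chaperones 4 rose. Psmg1 to Psmg4, which guide assembly of the core and leave it once it is built, were all called higher, with differences of 1.55 to 1.83. Psmg4 had the largest difference in this class, at 11.52 and 11.89 in stimulated cells, against 9.58 and 10.17 in control cells (1.83 ± 0.44, limma adjusted p = 0.0346). Psmd5, Psmd9 and Psmd10, which chaperone the 19S base, had differences of 0.32 to 0.69, and 0 of the 3 was called (1 had an unadjusted p under 0.05 by limma). Psmd10 had the smallest, at 10.17 and 10.34 in stimulated and 10.07 and 9.81 in control cells. The difference between the chaperone sets was not tested.

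**Figure D2:**
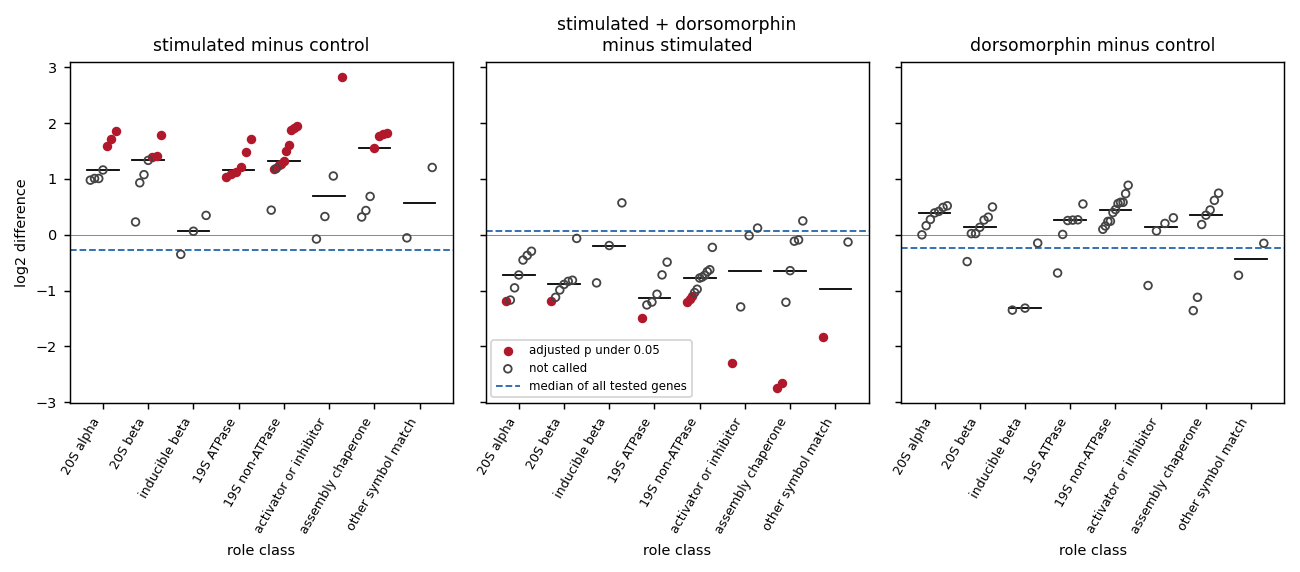
Log2 difference of each tested proteasome gene by role class in 3 contrasts, each panel titled by the groups subtracted. Filled red points passed the adjusted threshold, open points did not, black bars are class medians and the dashed line is the median of all tested genes. In the left panel all points but that of Psmb10 lie above the dashed line at -0.27, and in the middle panel the lowest points are the chaperones Psmg1 and Psmg2 and the activator Psme3.

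With the replicate number as a block 34 members rose in stimulated against control cells (background 10.7%), among them Psma1 and Psmb5 (limma adjusted p = 0.0371 and 0.0176). The count of calls in stimulated against control cells depended on single arrays. Without either one of the control arrays 0 of 47 were called (26 and 30 had an unadjusted p under 0.05), as were 0 of all tested genes. Without stimulated replicate 2 the count was 2, and without either one of the dorsomorphin arrays, which enter only through the estimate of the spread, it was 12. It was 11 when only the 4 arrays compared were fitted and 13 after each array was centred on its median (background 7.16%). That centring moved the median of all genes to 0.08 and of the members to 1.56, and changed the split of all calls to 1001 higher and 1040 lower, beside 1256 higher and 2013 lower as deposited.

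The immunoproteasome was examined next. None of its 3 tested cutting subunits was called in stimulated against control cells by limma, and 0 of the 3 had an unadjusted p under 0.05. Psmb8 read 13.03 and 12.51 in stimulated cells, against 12.60 and 12.81 in control cells. Psmb9 read 13.04 and 12.60 in stimulated cells, against 12.44 and 12.50 in control cells. Psmb10 read 11.51 and 10.27 in stimulated cells, against 11.03 and 11.45 in control cells. Replicate 1 was the higher stimulated array for each of these genes, while replicate 2 was the higher one for 42 of the 47 members. The differences of 0.06 ± 0.45, 0.35 ± 0.47 and -0.35 ± 0.57 had 95% intervals of -1.03 to 1.16, -0.81 to 1.504 and -1.74 to 1.04.

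The constitutive partners of these subunits had larger differences. Psmb5, the chymotrypsin-like subunit that Psmb8 replaces, read 12.98 and 13.43 in stimulated cells, against 11.72 and 12.02 in control cells (1.33 ± 0.39, not called). Psmb6, the caspase-like subunit that Psmb9 replaces, read 12.80 and 13.43 in stimulated cells, against 11.59 and 11.82 in control cells, and rose by 1.41 ± 0.37 (limma adjusted p = 0.0419). Psmb7, the trypsin-like subunit that Psmb10 replaces, read 11.77 and 11.22 in stimulated cells, against 10.39 and 9.81 in control cells, and rose by 1.39 ± 0.32 (limma adjusted p = 0.0317).

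Within each array the log2 signal of the inducible subunit was set against that of its partner, and the change in this difference was compared between groups. The signal of Psmb8 minus that of Psmb5 was 0.05 and -0.92 in stimulated cells, against 0.88 and 0.79 in control cells, a change of -1.27. For Psmb9 minus Psmb6 the change was -1.06, and for Psmb10 minus Psmb7 it was -1.74. In all 3 pairs both stimulated arrays lay below both control arrays. With dorsomorphin alone the changes against the same control arrays were -0.46, -1.37 and -1.58, again with both arrays below both controls in each pair. Such separation was common: 42.0% and 42.3% of all tested genes, taken singly, had both arrays below both controls in these comparisons. The changes also contain the differences of the single subunits, so they are no separate result. The exact two-sided permutation test of 2 against 2 arrays gave p = 0.333 for each of these 6 comparisons, which is the smallest p this design allows, and adjustment over them leaves it unable to pass, so the changes are a description of these arrays.

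**Figure D3:**
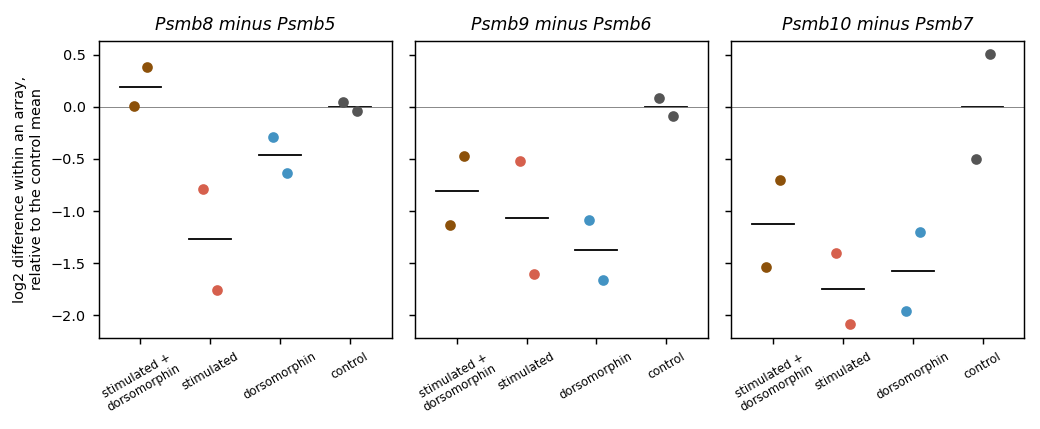
Log2 signal of each inducible cutting subunit minus that of the constitutive subunit it replaces, per array, relative to the mean of the 2 control arrays. Points are arrays and bars are group means. Both stimulated arrays lie below both control arrays in each panel, and in the left panel both arrays of stimulated cells with dorsomorphin lie above both stimulated arrays.

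Promoter sequence was looked at because many of the members rose together while the tested immunoproteasome subunits were not called. Windows of 250 bases, from 220 before to the 30th base of the annotated transcript, were read from RefSeq's GRCm38.p6 promoters, where 41 of the 49 members and 40 of the 47 tested had an entry. The first 3 sequences belong to members with large differences, the activator Psme3, the chaperone Psmg1 and the lid subunit Psmd12. The last 3 belong to the constitutive Psmb5 and to the inducible Psmb8 and Psmb9, which lie near each other in the MHC region. Capitals mark matches to the motifs searched, and a match on the opposite strand reads as the reverse complement.
Psme3, chr11:101315993-101316242, plus strand: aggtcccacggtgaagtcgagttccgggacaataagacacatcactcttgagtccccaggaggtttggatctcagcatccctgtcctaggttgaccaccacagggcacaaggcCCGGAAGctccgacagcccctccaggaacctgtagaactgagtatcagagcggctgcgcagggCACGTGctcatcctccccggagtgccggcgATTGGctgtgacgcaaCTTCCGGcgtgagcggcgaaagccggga
Psmg1, chr16:95990931-95991180, minus strand: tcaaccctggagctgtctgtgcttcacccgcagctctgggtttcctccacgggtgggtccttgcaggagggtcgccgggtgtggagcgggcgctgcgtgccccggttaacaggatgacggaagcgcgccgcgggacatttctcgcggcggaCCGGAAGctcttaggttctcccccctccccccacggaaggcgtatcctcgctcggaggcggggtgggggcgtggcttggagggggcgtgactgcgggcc
Psmd12, chr11:107479308-107479557, plus strand: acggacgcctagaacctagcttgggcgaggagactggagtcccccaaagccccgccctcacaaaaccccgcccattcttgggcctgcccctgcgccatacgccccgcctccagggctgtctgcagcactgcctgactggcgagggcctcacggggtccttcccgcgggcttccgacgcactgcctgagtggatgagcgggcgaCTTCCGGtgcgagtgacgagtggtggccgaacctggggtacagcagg
Psmb5, chr14:54617966-54618215, minus strand: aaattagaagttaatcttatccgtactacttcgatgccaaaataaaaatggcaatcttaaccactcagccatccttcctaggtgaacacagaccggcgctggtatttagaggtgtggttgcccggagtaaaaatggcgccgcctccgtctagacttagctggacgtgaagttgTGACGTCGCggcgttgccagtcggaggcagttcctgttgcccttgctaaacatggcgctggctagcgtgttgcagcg
Psmb8, chr17:34197975-34198224, plus strand: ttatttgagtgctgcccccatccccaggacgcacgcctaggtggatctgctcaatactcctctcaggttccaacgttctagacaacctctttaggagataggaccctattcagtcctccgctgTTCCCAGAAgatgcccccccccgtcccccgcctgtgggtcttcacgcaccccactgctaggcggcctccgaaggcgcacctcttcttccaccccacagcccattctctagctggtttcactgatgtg
Psmb9, chr17:34187301-34187550, minus strand: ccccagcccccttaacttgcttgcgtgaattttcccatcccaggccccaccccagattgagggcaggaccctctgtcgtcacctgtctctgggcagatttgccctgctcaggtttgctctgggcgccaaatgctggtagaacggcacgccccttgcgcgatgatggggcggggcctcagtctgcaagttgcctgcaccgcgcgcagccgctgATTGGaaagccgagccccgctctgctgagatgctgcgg

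The capitals in the windows of Psme3, Psmg1 and Psmd12 include CCGGAAG, the core that ETS-family factors are known to bind. Counting from 1 at the annotated start, this core begins at base -107 and again at base 3 in Psme3, at base -69 in Psmg1 and at base -17 in Psmd12. The core was found in 16 of the 40 tested members with a window, against 16.6% of the 11259 tested genes with one and 8.10% of all 32851 windows. It was in 10 of the 20 members called higher in stimulated cells and in 6 of the 20 not called. The windows shown were picked as examples. That the core is marked in these windows and not in the others shown is therefore no result about the members. No test was run on these shares, and a match is not evidence of binding.

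The other motifs, searched on both strands, were spread differently. CACGTG, the E-box, was in 5 of the 40 members (12.5%, against 10.1% of tested genes) and begins at base -44 in Psme3. CCAAT was in 15 (37.5%, against 38.9%) and overlapped no marked ETS core in the windows shown. TGACNNNGC, the antioxidant response element, was in 4 (against 14.4%), among them the constitutive Psmb5 and Psmb6. GAAA followed by 2 free bases and GAAA again, the interferon-stimulated element, was in 5 (12.5%, against 3.04%). They were Psmb3, Psmd4, Psmd9, Psme1 and Psmg4, and the inducible Psmb8, Psmb9 and Psmb10 were not among them. TTCNNNGAA, the gamma-activated site, was in 2 (against 7.08%), Psmb8 and Psmd2. TGACGTCA, the cAMP response element, was in 0 of the 40 (3.08% of tested genes).

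The second comparison asked what dorsomorphin did to the proteasome genes of stimulated cells. With dorsomorphin 10 of the 47 members fell in stimulated cells against stimulated cells with DMSO and 0 rose, by limma at the same threshold. That is 21.3% of the members, against a background of 12.4% called lower and 9.71% called higher over all tested genes. With the floor at the 60th percentile 18 members were called, beside 22.8% of 9640 genes called lower. The median difference of the members was -0.84, against 0.07 over all genes. A further 14 members had an unadjusted p under 0.05. With those called, 24 of the 47 had such a p by limma, beside 5083 of the 13983 tested genes. For 31 members both arrays with dorsomorphin lay below both stimulated arrays, against a background of 29.1%. The called members fell by 2.14-fold (Psmd7) to 6.69-fold (Psmg1).

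The largest falls were in a pair of chaperones and in Psme3. Psmg1 and Psmg2 encode the partners of a dimer that helps the alpha ring to form. Psmg1 read 9.11 and 9.50 in stimulated cells with dorsomorphin, against 11.67 and 12.43 in stimulated cells (-2.74 ± 0.34, limma adjusted p = 0.00742). Psmg2 read 9.97 and 10.04 in stimulated cells with dorsomorphin, against 12.64 and 12.69 in stimulated cells (-2.66 ± 0.28, limma adjusted p = 0.00599). For both genes the arrays of stimulated cells with dorsomorphin also lay below both control arrays, at 10.13 and 10.36 for Psmg1 and 11.18 and 10.63 for Psmg2. The same order of arrays was found for 37.9% of all tested genes. Psmg3 and Psmg4, the other dimer, differed by -0.64 ± 0.41 and -1.21 ± 0.44, and neither was called.

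Psme3 read 8.99 and 9.45 in stimulated cells with dorsomorphin, against 11.27 and 11.78 in stimulated cells, and fell by 2.30 ± 0.28 on the log2 scale (limma adjusted p = 0.00727). These arrays lay just above the control arrays of 8.65 and 8.76. A second probe set of Psme3 was called in the same directions, at 1.81 ± 0.37 for stimulated against control cells and -1.88 ± 0.37 for stimulated cells with against without dorsomorphin (limma adjusted p = 0.0266 and 0.0208 over all probe sets).

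Of the 31 core and 19S subunits tested, 6 fell and all 31 had differences below 0. The ATPase Psmc3 had the largest fall, at 11.24 and 11.59 in stimulated cells with dorsomorphin, against 12.64 and 13.17 in stimulated cells (-1.49 ± 0.28, limma adjusted p = 0.0179). The lid subunit Psmd3 read 10.61 and 10.48 in stimulated cells with dorsomorphin, against 11.69 and 11.81 in stimulated cells (-1.20 ± 0.20, limma adjusted p = 0.0138). The others called were Psma4 (-1.20 ± 0.32), Psmb4 (-1.18 ± 0.27), Psmd1 (-1.14 ± 0.31) and Psmd7 (-1.09 ± 0.26). Psmb4 is a non-cutting subunit of the inner ring. The call for Psmd7 is tied to the probe set chosen: with the mean over its probe sets the difference was 0.11. Psmc3ip, which is not a proteasome subunit, also fell, by 1.83 ± 0.46.

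The cutting subunits were not called. Psmb5 read 11.88 and 12.75 in stimulated cells with dorsomorphin, against 12.98 and 13.43 in stimulated cells, a difference of -0.89 ± 0.39. For Psmb6 and Psmb7 the differences were -1.12 ± 0.37 and -0.82 ± 0.32. Psmb8 read 12.72 and 13.96 in stimulated cells with dorsomorphin, against 13.03 and 12.51 in stimulated cells, a difference of 0.57 ± 0.45. For Psmb9 and Psmb10 the differences were -0.86 ± 0.47 and -0.19 ± 0.57, with overlapping arrays. The signal of Psmb8 minus that of Psmb5 was 0.84 and 1.21 in stimulated cells with dorsomorphin, against 0.05 and -0.92 in stimulated cells (exact permutation p = 0.333, the smallest possible with 2 against 2 arrays). Taken singly, 31.4% of all tested genes had both arrays with dorsomorphin above both stimulated arrays. For Psmb9 minus Psmb6 and Psmb10 minus Psmb7 the changes were 0.26 and 0.62, with overlapping arrays (exact permutation p = 0.667 for each).

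Psme1 read 12.24 and 13.47 in stimulated cells with dorsomorphin, against 14.15 on both stimulated arrays (-1.29 ± 0.41, limma adjusted p = 0.0743). The probe set of Psme2 and Psme2b read 12.95 and 13.94 in stimulated cells with dorsomorphin, against 13.95 and 13.99 in stimulated cells. Psme4 and Psmf1 differed by 0.12 ± 0.23 and -0.02 ± 0.21.

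Replicate 2 was the higher array of stimulated cells with dorsomorphin for 45 of the 47 members, by a median of 0.57, while 43.8% of all tested genes were higher in it. In stimulated cells the corresponding values were 42 members and 0.43, with dorsomorphin alone 35 and 0.21, and in control cells 36 and 0.08. The per-array median of the 47 members was 11.62 and 12.26 in stimulated cells with dorsomorphin, 12.64 and 13.03 in stimulated cells, 11.66 and 11.92 with dorsomorphin and 11.59 and 11.73 in control cells. Within either replicate number the stimulated array was thus the highest of the 4. Between arrays numbered 1 the members' median difference was -1.03 for stimulated cells with against without dorsomorphin and 1.005 for stimulated against control cells, and between arrays numbered 2 it was -0.68 and 1.40. The 3' minus 5' log2 signal of the spike-in transcript Dap, which was added to the RNA, was 1.51 to 1.65 on the arrays numbered 1 and 2.69 to 3.10 on those numbered 2, and that of the spike-in Thr was 1.59 to 1.84 and 2.57 to 2.97. The part of this split in the replicate spread was not tested. That of mouse actin was 0.33 on both stimulated arrays and 0.47 to 0.80 on the other 6, and its part in the results for stimulated cells was not tested either.

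With the replicate number as a block 18 members fell (background 14.1%), among them Psmb5 and Psmb6, and 9 of the 10 calls were kept, without Psmc3ip (limma adjusted p = 0.0507). The count of 10 falls also depended on single arrays. It was 3 without replicate 1 of stimulated cells with dorsomorphin, with a median difference of -0.48, and 3 without stimulated replicate 2. Without either one of the control arrays it was 5 and without either one of the unstimulated dorsomorphin arrays 6. With only the 4 arrays compared it was 0 for the members and for all tested genes. An unadjusted p under 0.05 by limma was then found for 12 members and for 4040 of all tested genes. Median centring gave 6 falls (background 10.9%), with an all-gene split of 689 higher and 1520 lower beside 1358 and 1738 as deposited, and a median of -0.18 over all genes.

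**Figure D4:**
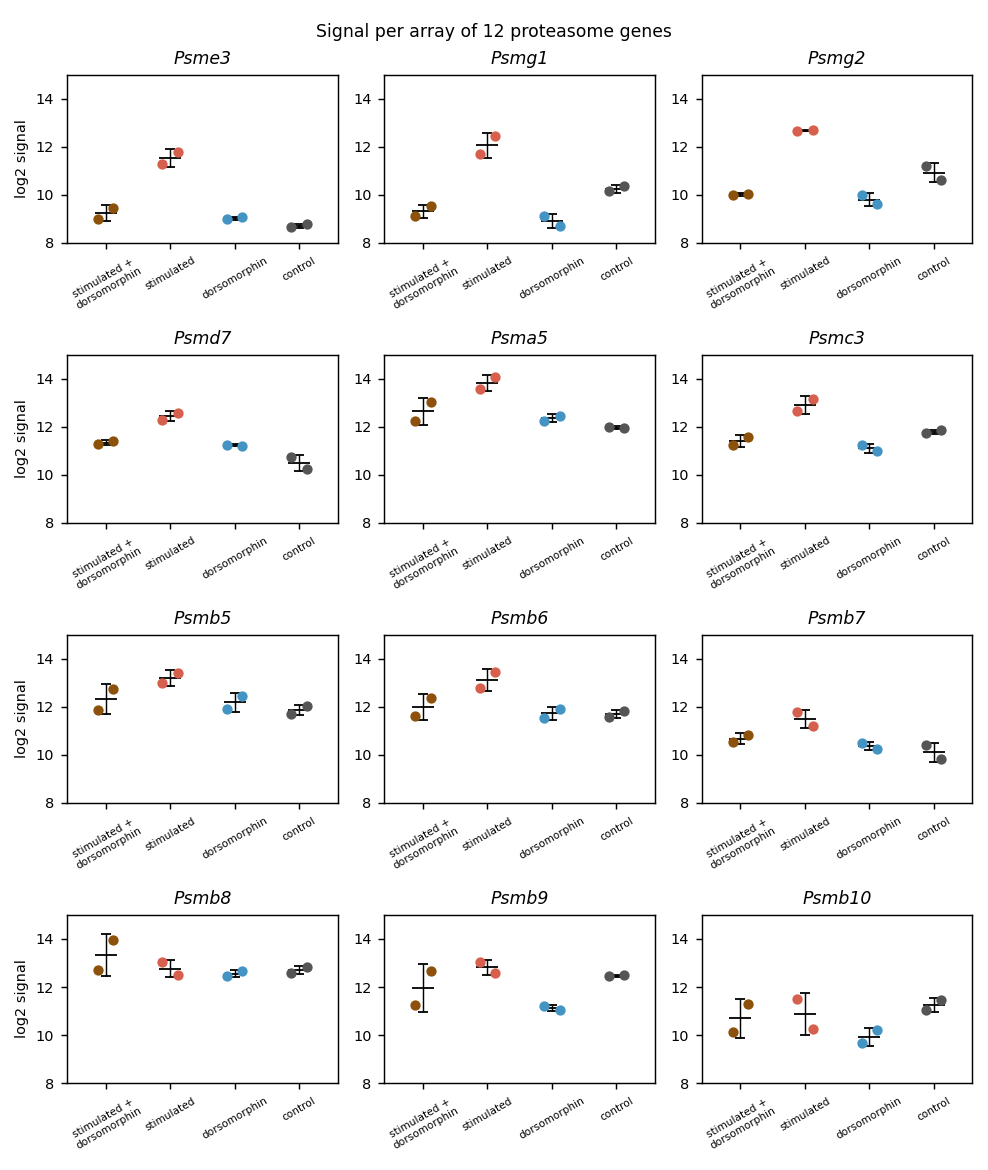
Log2 signal per array of 12 proteasome genes in the 4 groups. Points are arrays, and the black bar and whiskers are the mean and SD of the 2 arrays. Psme3, Psmg1 and Psmg2 stand out in stimulated cells, with Psmg1 and Psmg2 below the control level in both groups with dorsomorphin, while the stimulated arrays of Psmb8 and Psmb10 overlap those of controls, and Psmb9 and Psmb10 lie below controls with dorsomorphin alone.

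In unstimulated cells dorsomorphin gave 0 calls among the 47 members by limma, with 6 at an unadjusted p under 0.05. Such a p was found for 4389 of the 13983 tested genes, a larger share than among the members. Over all tested genes 1.92% were called higher and 11.1% lower with dorsomorphin than in control cells. The median difference of the members was 0.25, against -0.24 over all genes. For 24 members both dorsomorphin arrays lay above both control arrays (background 23.2%) and for 7 both lay below (background 42.3%).

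The members with the smallest adjusted p were again the chaperone pair. Psmg1 read 9.10 and 8.68 with dorsomorphin, against 10.13 and 10.36 in control cells (-1.36 ± 0.34, limma adjusted p = 0.0541). Psmg2 read 9.97 and 9.59 with dorsomorphin, against 11.18 and 10.63 in control cells (-1.12 ± 0.28, limma adjusted p = 0.0514). Neither passed. In both genes the 2 dorsomorphin arrays lay below both control arrays, which held for 42.3% of all tested genes. With the replicate number as a block Psmg2 fell (limma adjusted p = 0.0462) and Psmd12 rose (limma adjusted p = 0.0404), 1 call each way beside 13.8% of all genes called lower and 2.81% higher. Psmd12 and Psmd7 differed the other way, by 0.89 ± 0.29 and 0.73 ± 0.26, and Psmd11 by 0.58 ± 0.23, also without passing when no block was fitted.

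The inducible subunits Psmb9 and Psmb10 had low signals in unstimulated cells with dorsomorphin. Psmb9 read 11.21 and 11.03 with dorsomorphin, against 12.44 and 12.50 in control cells (-1.35 ± 0.47, limma adjusted p = 0.114). Psmb10 read 9.66 and 10.19 with dorsomorphin, against 11.03 and 11.45 in control cells (-1.31 ± 0.57, limma adjusted p = 0.179). Psme1 read 12.11 and 12.27 with dorsomorphin, against 13.02 and 13.18 in control cells (-0.91 ± 0.41). In these 3 genes the dorsomorphin arrays lay below the control arrays, as in 42.3% of all tested genes, and none was called. Psmb8 read 12.45 and 12.67 with dorsomorphin, against 12.60 and 12.81 in control cells, and the groups overlapped. The myeloid markers, whose summed signal was lower in all other groups than in control cells, moved with this comparison too, and their part was not tested.

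Stimulated cells with dorsomorphin were also set against both unstimulated groups. Against dorsomorphin alone 0 of the 47 members and 0.0% of all 13983 tested genes were called by limma (0 members and 539 genes had an unadjusted p under 0.05). The median difference of the members was 0.19 and ranged from -0.12 to 0.46 when 1 array was left out, and the smallest unadjusted p belonged to Psmb9, at 0.83 ± 0.47. Against control cells 0 members were called, with a background of 0.915% higher and 6.31% lower. An unadjusted p under 0.05 by limma was found for 5 members, beside 3691 of the 13983 tested genes. The members' median was 0.44. Without replicate 2 of stimulated cells with dorsomorphin that median was 0.06, and without either one of the control arrays 0 of all tested genes were called. The smallest adjusted p there belonged to Psmd7, at 0.85 ± 0.26 (limma adjusted p = 0.103).

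Whether the difference with dorsomorphin itself differed between stimulated and unstimulated cells was tested as the interaction, and 0 of the 47 members passed, with 20 at an unadjusted p under 0.05 by limma. Over all tested genes 0.0358% were called higher and 0.0501% lower, and 3687 of the 13983 had an unadjusted p under 0.05. The members' median interaction was -1.07, against 0.35 over all genes. Psme3 had the smallest adjusted p, at -2.60 ± 0.40 (limma adjusted p = 0.0595), followed by Psmd7 at -1.83 ± 0.36 and Psmd3 at -1.45 ± 0.29. For Psmg1 it was -1.38 (limma adjusted p = 0.147), so its difference with dorsomorphin was not shown to differ between stimulated and unstimulated cells.

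Members with several probe sets did not always give 1 answer. Of the 26 members with more than 1 tested probe set, 11 had probe sets of opposite sign in stimulated against control cells: Psma1, Psmb1, Psmc2, Psmd4, Psmd7, Psmd9, Psmd11, Psmd13, Psme4, Psmf1 and Psmg2. No probe set opposite to the one used was called there. In stimulated cells with against without dorsomorphin 12 had opposite signs, namely Psma1, Psma3, Psma5, Psma6, Psmb1, Psmc2, Psmd2, Psmd4, Psmd7, Psmd9, Psmd11 and Psmd13. Of these, Psma1, Psma3, Psmc2 and Psmd9 had another probe set that was called higher while the one used here had a difference below 0. For Psma3 that probe set differed by 1.18 ± 0.25, against -0.30 ± 0.31 for the one used. In unstimulated cells with dorsomorphin against control cells the 11 were Psmb3, Psmb8, Psmc4, Psmc6, Psmd2, Psmd7, Psmd9, Psmd11, Psmd13, Psme3 and Psmf1. Probe sets also differed in call, with the same sign or not, for 6 members in stimulated against control cells (Psma5, Psmd6, Psmd7, Psmd11, Psmg2 and Psmg4), and the probe set used was called in each. For stimulated cells with against without dorsomorphin they were 11 members, adding Psmb4, Psmc4, Psmc6, Psme4, Psmf1 and Psmg2 to the 4 above and Psmd7. In unstimulated cells they were Psma1, Psma3, Psmd7 and Psmd9.

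Genes that work with the proteasome but carry other symbols were taken from a list. Of 20 tested proteasome-associated genes, 6 rose in stimulated against control cells, beside 8.98% of all tested genes, and 0 fell, beside 14.4%. Their median difference was 0.52. Pomp, the chaperone that matures the core, read 13.44 and 13.75 in stimulated cells, against 11.74 and 11.89 in control cells (1.78 ± 0.39, limma adjusted p = 0.0267). The others were the ubiquitin shuttle Rad23b (1.48 ± 0.29), the deubiquitinase Uchl5 (1.37 ± 0.36), the 19S-bound thioredoxin-like Txnl1 (1.35 ± 0.32), and Nploc4 and Nsfl1c (0.99 ± 0.26 and 0.88 ± 0.23), both cofactors of the unfolding ATPase p97. Usp14, another deubiquitinase of the 19S, differed by 0.66 ± 0.37 and was not called. With dorsomorphin in stimulated cells 1 of the 20 rose against stimulated cells (Zfand2a, 1.41 ± 0.38) and 1 fell (Ubqln4, -1.10 ± 0.23), shares of 5.0% that lay below the 9.71% and 12.4% over all tested genes, while Pomp differed by -0.77 ± 0.39 and was not called. In unstimulated cells with dorsomorphin Zfand5 rose (1.07 ± 0.26) and Ubqln2 fell (-1.28 ± 0.28). Each is 5.0% of the 20, beside 1.92% called higher and 11.1% called lower over all tested genes.

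Transcription factors and processing enzymes of the proteasome program were mostly not called. Nfe2l1, the factor known to raise proteasome genes when the proteasome is blocked, differed by 0.48 ± 0.24 in stimulated against control cells and was not called. Nfe2l2, its oxidative-stress relative, read 9.57 and 10.05 in stimulated cells, against 11.04 and 11.21 in control cells, and fell by 1.32 ± 0.27 (limma adjusted p = 0.0236). Ngly1, which removes sugars from Nfe2l1 protein, fell by 1.92 ± 0.27. These were 2 of the 10 in the list, beside 14.4% of all genes called lower, and 0 rose. In stimulated cells with against without dorsomorphin Nfe2l2 rose by 1.29 ± 0.27, and Maff and Sel1l fell by 1.40 ± 0.35 and 1.30 ± 0.24. Ngly1 and Sel1l also fell with dorsomorphin in unstimulated cells, by 2.37 ± 0.27 and 1.81 ± 0.24. Of 12 genes for ubiquitin activation and conjugation, Uba6 and Ube2n rose in stimulated cells by 1.18 ± 0.22 and 1.16 ± 0.24. That is 16.7%, beside 8.98% of all tested genes, and 0 fell. With dorsomorphin in stimulated cells Uba6 fell by 0.91 ± 0.22 and Ube2r2, an E2, rose by 1.11 ± 0.23. Each is 8.33% of the 12, below the 12.4% called lower and 9.71% called higher over all tested genes.

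A list of antigen processing genes and of their interferon-linked regulators, such as Nlrc5, Irf1 and Irf2, held 17 tested genes. In stimulated against control cells 5 rose (29.4%, beside 8.98% of all genes) and 2 fell (11.8%, beside 14.4%), with a median of 0.16. The aminopeptidases Lap3 and Erap1, which trim peptides in the cytosol and the endoplasmic reticulum, rose by 3.97 ± 0.40 and 1.81 ± 0.29. The others that rose, Canx, Calr and Pdia3, are general folding factors of the endoplasmic reticulum (1.19 ± 0.26, 1.19 ± 0.32 and 0.77 ± 0.21). Irf2 and the peptidase Npepps fell by 1.34 ± 0.30 and 1.19 ± 0.21. The peptide transporter genes Tap1 and Tap2 differed by 0.02 ± 0.30 and 0.03 ± 0.31 and B2m by -0.27 ± 0.20, and none of these genes of antigen loading was called.

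With dorsomorphin 6 of these 17 genes fell in stimulated cells (35.3%, beside 12.4% of all genes) and 2 rose (11.8%, near the 9.71% over all genes). Lap3 read 7.54 and 8.71 in stimulated cells with dorsomorphin, against 11.71 and 12.01 in stimulated cells (-3.73 ± 0.40, limma adjusted p = 0.0062). Nlrc5, the transactivator of MHC class I genes and of Psmb9, read 7.57 and 8.37 in stimulated cells with dorsomorphin, against 11.94 and 11.00 in stimulated cells (-3.50 ± 0.42, limma adjusted p = 0.00719). Erap1 fell by 2.14 ± 0.29, and Npepps rose by 1.70 ± 0.21. In unstimulated cells Nlrc5 read 7.58 and 7.90 with dorsomorphin, against 11.17 and 11.07 in control cells (-3.38 ± 0.42, limma adjusted p = 0.0125). Tap1, which shares a promoter region with Psmb9, read 11.02 and 10.70 with dorsomorphin, against 12.13 and 12.16 in control cells (-1.29 ± 0.30, limma adjusted p = 0.0439). Nlrc5 and Tap1 were the only 2 of the 17 called lower there, a share of 11.8% near the 11.1% of all tested genes, and 0 rose. Irf1 was not called in either comparison of stimulated cells (1.05 ± 0.70 and 0.16 ± 0.70).

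Other complexes of many subunits were counted the same way, beside 8.98% of all tested genes called higher in stimulated against control cells and 12.4% called lower in stimulated cells with against without dorsomorphin. Of the 8 subunits of the CCT chaperonin, which folds actin and tubulin, 6 rose in stimulated against control cells with a median of 1.36, and 2 fell in stimulated cells with against without dorsomorphin (Cct6a, at 12.87 with and 14.37 without dorsomorphin, and Cct8, by 1.15 ± 0.25). Of the 9 subunits of the COP9 signalosome, a relative of the 19S lid, 4 rose with a list median of 0.91, and 2 fell with dorsomorphin, Cops7a by 3.23 ± 0.24 and Cops6 by 2.24 ± 0.31. Both also fell with dorsomorphin in unstimulated cells, 2 of 9 beside 11.1% of all genes. Of 11 subunits of the translation factor eIF3, another relative of the lid, 6 rose with a median of 0.93 and 6 fell with dorsomorphin, among them Eif3l by 1.36 ± 0.24. The medians with dorsomorphin in stimulated cells were -0.93 for CCT, -0.56 for COP9 and -0.80 for eIF3, beside -0.84 for the proteasome genes. No test set one complex against another.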

How the data were processed

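For each array the authors deposited 1 linear intensity value per probe set, 45101 in all, on 8 arrays. RMA and affy were named, per the submitters' processing notes, without a version. RMA gives log2 values, whereas here the mean after trimming 2% at each end was 500 on every array. No source used here gives the step behind them.

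GEO's platform annotation gave 1 symbol to 34945 probe sets, several to 932 and none to 9160, and 64 were control probe sets. Of the single symbols 34741 matched RefSeq (GRCm38.p6) by gene ID and 0 changed. Log2 intensities of 13983 genes were fitted with limma 3.58.1 in R 4.3.3 over all 8 arrays, with 4 residual and 1.90 prior degrees of freedom and 6 contrasts. Tests were two-sided, with Benjamini-Hochberg adjustment over all tested genes. SE are limma's, and intervals are 95%. The limma step was tested on simulated data. Tables were made with Python 3.11.15 and pandas 2.3.3.

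Named were the cutting subunits, activators and inhibitor, the largest and smallest stimulated against control difference per role class, up to 6 further members per contrast by adjusted p, untested members and members whose probe sets disagreed. For other lists at most 6 called genes per contrast were named, with a few fixed genes. Members, lists and motifs were chosen with earlier results of these data known. Alternatives covered the filter, offset, scaling, choice of probe set, variance estimate, replicate block, arrays fitted and each array left out.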

Additional observations from a re-analysis of the deposited data

How the results depend on the processing

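Of 3503 recomputed differences of 31 named members over 19 alternatives, 3241 kept their direction and side of the threshold, 161 lost and 100 gained a call, and 1 reversed: Psmd7 in stimulated cells with against without dorsomorphin, at 0.11 with the mean of probe sets. The causes of the shifts below were not tested.

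Members called in stimulated against control cells numbered 17 with the mean of probe sets, 13 with median centring, 12 with no filter and 11 with only the arrays compared, and 0 to 27 with 1 array left out. Counts above the 26 of the main fit were 34 with the 60th percentile filter (background 17.4% higher) and 33 with cyclic loess (background 11.4% higher). They were also 32 with log2(intensity + 16) and 35 with trend and robust. With the plain probe set 21 members were called in this contrast, and with quantile normalization 26. For stimulated cells with against without dorsomorphin the members called numbered 18 with the 60th percentile filter (background 22.8% lower) and 19 with cyclic loess (background 15.4% lower). Further counts were 16 with log2(intensity + 16), 25 with trend and robust, 6 with median centring, 5 with no filter and 0 with only the arrays compared. Over all tested genes 2006 were called lower with log2(intensity + 16) and 2219 with trend and robust, beside 1738 in the main fit. Part of the gain is thus shared by all genes. For dorsomorphin against control they were 3, 2, 1 and 5 with the 60th percentile filter, log2(intensity + 16), the plain probe set and trend and robust, and 0 to 1 with 1 array left out. For stimulated cells with dorsomorphin against control they were 2, 1 and 3 with the 60th percentile filter, the plain probe set and trend and robust. For the interaction they were 7, 4, 2 and 10 with the 60th percentile filter, log2(intensity + 16), quantile normalization and trend and robust, and 0 to 1 with 1 array left out.

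The members' medians with median centring were 1.56 (stimulated against control), 0.47 (dorsomorphin against control) and -1.55 (interaction). With 1 array left out the first ranged over 0.98 to 1.48, and that of stimulated cells with dorsomorphin against control over 0.055 to 0.71.

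The labels give every group replicates 1 and 2. Deviations of same-numbered arrays correlated at 0.069 to 0.178 over all genes, not above 0.1 for every pair of groups, and over the members at -0.24 to 0.56. The labels name no shared batch behind a number, and the spike-in transcripts split by it. With the replicate block 34 members were called in stimulated against control cells, 18 in stimulated cells with against without dorsomorphin, 2 in dorsomorphin against control and 0 of all genes in the interaction.

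Over all genes, calls in stimulated against control cells numbered 2127 with the mean of probe sets, 2041 with median centring, 2122 with no filter, 1668 with only the arrays compared and 0 to 2940 with 1 array left out. For stimulated cells with against without dorsomorphin they were 0 with only the arrays compared and 1000 to 2648 with 1 array left out. For dorsomorphin against control they were 2968 with the 60th percentile filter, 844 with the mean of probe sets, 906 with median centring, 927 with no filter, 883 with only the arrays compared, 3103 with trend and robust and 0 to 1591 with 1 array left out. For stimulated cells with dorsomorphin against control they were 2075 with the 60th percentile filter, 1663 with log2(intensity + 16), 334 with the mean of probe sets, 644 with median centring, 264 with no filter, 0 with only the arrays compared, 2183 with trend and robust and 0 to 760 with 1 array left out, and against dorsomorphin alone 2 with the 60th percentile filter. For the interaction they were 1867 with the 60th percentile filter, 46 with cyclic loess, 910 with log2(intensity + 16), 2 with the mean of probe sets, 0 with median centring, 0 with no filter, 2 with the plain probe set, 384 with quantile normalization, 2036 with trend and robust and 0 to 803 with 1 array left out. A lone array left in a group was assumed to vary like the other groups. In stimulated against control cells the main fit called 1256 of all genes higher and 2013 lower. With the 60th percentile filter these were 1674 and 2696, and with trend and robust 1721 and 2687. With log2(intensity + 16) they were 1504 and 2474, and with cyclic loess 1594 and 1601.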
